A study of Rattus norvegicus with 4 samples.

Results

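A group of 10 choroid plexus genes, with transthyretin (Ttr) at its centre, was followed through 4 RNA-seq libraries of the newborn rat hippocampus. The members are Ttr, Enpp2, Kl, Folr1, Aqp1, Clic6, Kcne2, Kcnj13, Slc4a5 and Otx2, found by gene symbol, and each of the 10 has 1 row among the 17445 rows of the 4 files. The genes were chosen by their FPKM values in these 4 libraries, which were already known, so every level and difference of a member given here is a description and carries no test. The values are FPKM, the fragments assigned to a gene per unit of its length and of the library's depth, so that levels of different genes can be set side by side.

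The pups were Wistar rats on postnatal day 1. Their dams had received bisphenol A (BPA), an endocrine-disrupting chemical found in polycarbonate plastics, or the vehicle. The dose of BPA was 5000 µg per kg of body weight every day from gestational day 1 to birth. By the study's methods the vehicle was ethanol in corn oil given into the stomach. The 4 groups were the control and BPA pups of each sex, and each was 1 library made from 3 pooled hippocampi. Below, paired values of a sex are those of its control pool and then of its BPA pool. No group therefore has a replicate, and within a sex 1 library is set against 1 other. The files hold FPKM only, but the spacing of the lowest FPKM values shows what 1 fragment is worth, which gave a depth of 8650000 to 8930000 fragments per library. The fragments behind each member's value were estimated from that depth. The 95% intervals below (exact Poisson for a level, Clopper-Pearson for a ratio) cover counting error only, not the spread between pups or pools. As the members were chosen by these values, an interval that excludes 1 describes counting error and is no test of BPA or sex. The label of the tissue was checked with 13 genes of hippocampal neurons, of which 11 were listed, with a summed level between 435 and 497 FPKM in the 4 libraries. Neurod6, a transcription factor of hippocampal and cortical neurons, was at 135 to 161 FPKM.

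The choroid plexus is a fringe of secretory epithelium inside the brain ventricles. It makes cerebrospinal fluid by moving sodium, chloride, bicarbonate and water from blood to ventricle, and it loads that fluid with carrier proteins and vitamins. In the lateral ventricle it is attached along the fimbria, at the edge of the hippocampus. Transthyretin, which carries thyroxine and retinol-binding protein, is its best known secreted product and is made by few other cells of the brain.

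Promoter sequence was found in RefSeq for 5 of the 10 members (Ttr, Kl, Aqp1, Kcnj13 and Slc4a5), as the 250 bases before the start of the gene in the assembly GRCr8. They were searched on both strands for TAATCC, the preferred site of Otx2-type homeodomains, for its core TAATC, which lies inside it, and for the TATA box TATAAA. Among 33360 promoter windows of this length, 6.31% hold TAATCC, 20.4% hold TAATC and 12.9% hold TATAAA. None of the 5 members' windows holds TAATCC. The windows of Ttr, Kl and Kcnj13 hold the core, which stands at 2 places in that of Ttr, with first bases 77 and 12 bases before the start. The windows of Aqp1 and Kcnj13 hold a TATA box, with its first base 30 and 46 bases before the start, and that of Slc4a5 holds none of these letters. A match describes the letters only and does not show that a factor binds there. Of the windows with a match, 3 are shown, with capitals marking TAATC (or its reverse complement GATTA) and TATAAA: that of Ttr because its level differed most between libraries, and those of Kcnj13 and Aqp1 because these 2 genes parted in the female control library. They lie on chr18:12218508-12218757, plus strand (Ttr), chr9:95518987-95519236, minus strand (Kcnj13), and chr4:85812534-85812783, plus strand (Aqp1).
Ttr: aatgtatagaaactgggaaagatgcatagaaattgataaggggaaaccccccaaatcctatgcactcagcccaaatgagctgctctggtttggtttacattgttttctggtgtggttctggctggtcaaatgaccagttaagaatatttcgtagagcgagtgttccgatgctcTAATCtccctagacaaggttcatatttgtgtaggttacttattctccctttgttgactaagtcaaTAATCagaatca
Kcnj13: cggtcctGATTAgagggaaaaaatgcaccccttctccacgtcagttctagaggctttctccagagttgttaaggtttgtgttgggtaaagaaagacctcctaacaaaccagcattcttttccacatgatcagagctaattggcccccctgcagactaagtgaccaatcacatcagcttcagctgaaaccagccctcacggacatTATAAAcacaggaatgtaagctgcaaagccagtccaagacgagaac
Aqp1: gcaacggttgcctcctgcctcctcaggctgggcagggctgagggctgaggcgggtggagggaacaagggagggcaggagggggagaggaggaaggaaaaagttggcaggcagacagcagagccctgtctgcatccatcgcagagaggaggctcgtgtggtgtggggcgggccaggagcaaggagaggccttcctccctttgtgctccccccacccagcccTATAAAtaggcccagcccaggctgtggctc

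Of the secreted products, Ttr was at 256 and 689.5 FPKM in the male pools and at 3.96 and 42.4 FPKM in the female pools. The level was thus far higher in both male libraries than in either female library, and within each sex it was higher after BPA. The estimated fragments behind these values were 1437, 3824, 22 and 236. By level, Ttr stood at rank 50 of 16878 rows in male BPA and at rank 10372 of 16942 rows in female control, so that one of the most abundant transcripts of one hippocampal pool lay below the middle of the list in another. The highest level was 174 times the lowest. Enpp2, which encodes autotaxin, the secreted enzyme that makes lysophosphatidic acid, was the opposite case, with 10.9 and 11.1 FPKM in the male pools and 10.0 and 7.63 FPKM in the female pools. Its highest level was 1.45 times its lowest.

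Both receptors were higher in the male libraries. Kl encodes klotho, the co-receptor through which FGF23 acts, and was at 0.49 FPKM in male control and 1.11 in male BPA. In the female libraries it was at 0.07 and 0.03 FPKM in control and BPA, which rest on about 2 and 1 fragments. Folr1, the folate receptor that carries folate across the epithelium, was at 4.75 and 6.63 FPKM in the male pools and at 2.18 and 1.69 FPKM in the female pools. For both genes each male library exceeded each female library.

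The water channel Aqp1 and the chloride channel family member Clic6 had the same order. Aqp1 was at 1.54 and 3.70 FPKM in the male pools and 0.54 and 0.27 FPKM in the female pools, and Clic6 was at 1.34 and 2.99 FPKM in males and 0.26 and 0.16 FPKM in females. Slc4a5, a sodium bicarbonate cotransporter of the apical membrane, followed them at a lower level, with 0.44 and 0.92 FPKM in males and 0.32 and 0.22 FPKM in females. Male BPA was the highest library and female BPA the lowest for all 3 of these genes.

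The potassium channel genes did not share that order. Kcne2, an accessory subunit of potassium channels, was at 2.02 and 4.0 FPKM in the male pools and at 1.51 and 3.39 FPKM in the female pools, so that the BPA library was the higher one in each sex. Between the BPA libraries the male level was 1.18 times the female one (counting interval 0.796 to 1.76). Kcnj13, the inward rectifier Kir7.1, was at 0.56 and 1.13 FPKM in the male libraries but at 1.72 FPKM in female control and 0.09 FPKM in female BPA. It was the only member with its highest level in female control. The homeobox gene Otx2, a transcription factor needed to form the choroid plexus, was at 0.94 and 1.74 FPKM in the male pools and 0.76 and 1.00 FPKM in the female pools, a narrow range with male BPA on top. In the reference assembly the span of Kcnj13 overlaps that of Gigyf2 and Slc4a5 overlaps an uncharacterized gene, and whether the authors' counting used strand is not given in the sources used here.

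**Figure D1:**
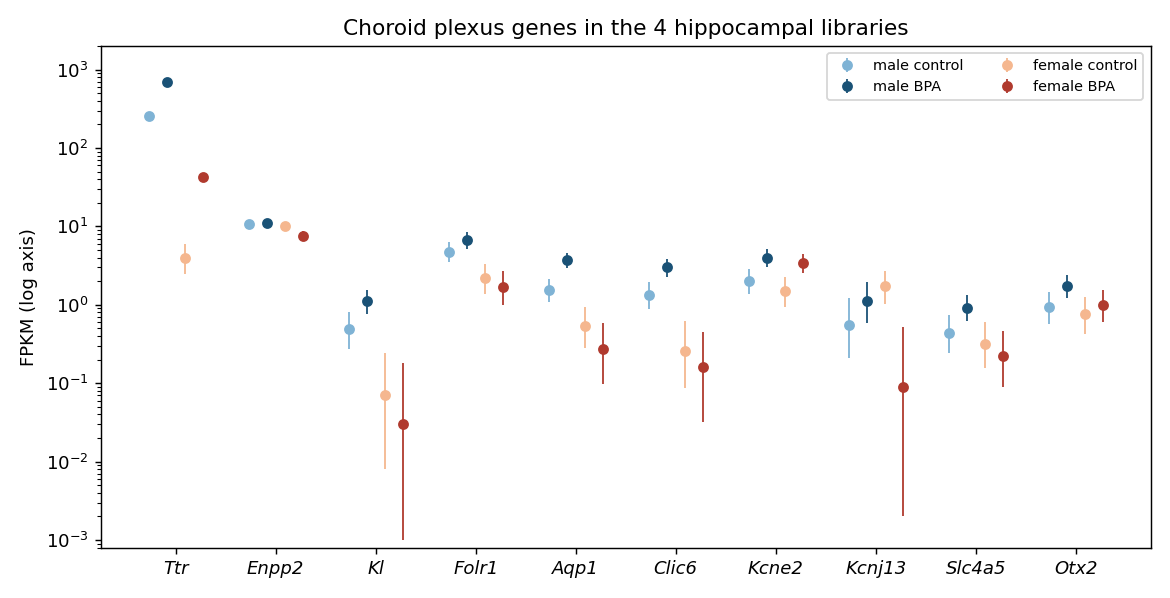
Level of the 10 members (FPKM, log axis) in the 4 libraries, 1 point for each library, with lines for the 95% counting interval. Ttr spans 3.96 to 689.5 FPKM, while Enpp2 stays between 7.63 and 11.1 FPKM.

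The members did not vary in one fixed proportion. Ttr made up 91.8% and 95.4% of the summed FPKM of the 10 members in the male pools, and 18.5% and 74.5% in the female pools. The sum of the other 9 moved far less, with 23.0 and 33.3 FPKM in the male pools and 17.4 and 14.5 FPKM in the female pools. Enpp2, nearly even, was the most abundant of these 9 in every library. Their median moved more, with 1.34 and 2.99 FPKM in the male pools and 0.76 and 0.27 FPKM in the female pools. Of the FPKM that Ttr had over the 4 libraries together, 69.5% was in male BPA and 0.4% in female control, and Kl (65.3% in male BPA), Clic6 (62.9%) and Aqp1 (61.2%) were also concentrated in that library. Lower shares were in male BPA for Slc4a5 (48.4%), Folr1 (43.5%), Otx2 (39.2%), Kcne2 (36.6%), Kcnj13 (32.3%) and Enpp2 (28.0%). In 5 of the 10 members (Ttr, Kl, Aqp1, Clic6 and Kcnj13) the highest library was at least 5 times the lowest, which held for 4.56% of the 14866 rows with at least 20 estimated fragments in all. In a bulk sample, fewer cells of a type and less RNA per cell cannot be told apart.

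**Figure D2:**
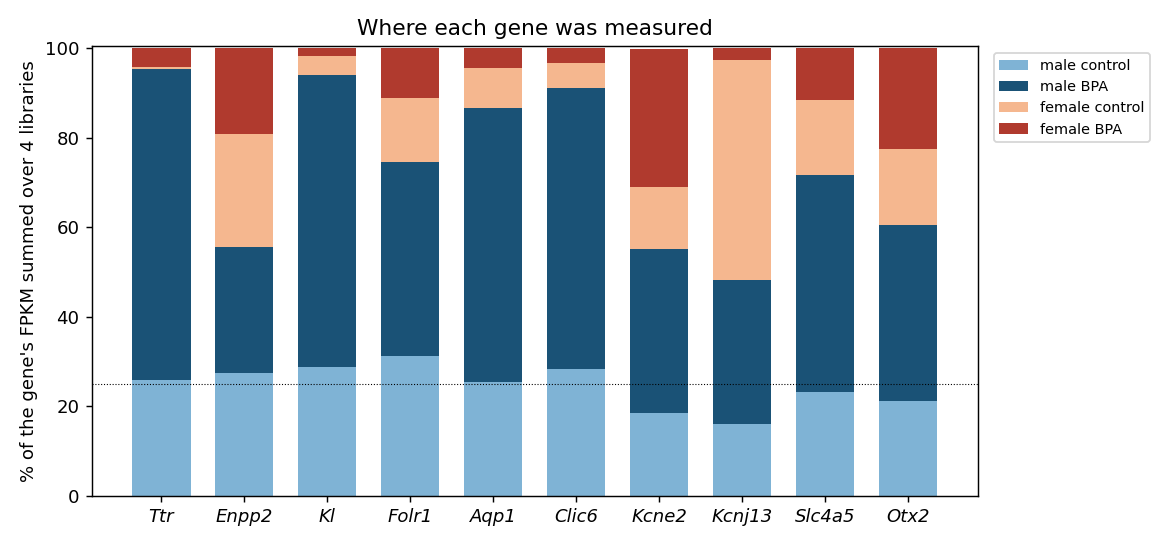
Share of each member's FPKM, summed over the 4 libraries, that was measured in each library, with 25% (dotted line) for an even spread. Male BPA holds 69.5% of Ttr and 28.0% of Enpp2, and female control holds 49.1% of Kcnj13.

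The male comparison asked whether these genes differed after prenatal BPA in male pups. All 10 members were higher in male BPA than in male control, by a factor of 2.69 for Ttr, 2.40 for Aqp1, 2.27 for Kl, 2.23 for Clic6, 2.09 for Slc4a5, 2.02 for Kcnj13, 1.98 for Kcne2, 1.85 for Otx2, 1.40 for Folr1 and 1.02 for Enpp2. The ratios of 8 genes therefore lay between 1.85 and 2.69. Of all 13508 male rows with a mean of at least 1 FPKM, 49.2% had a log2 fold change above 0, and 7 of the members are among those rows. The counting interval of Ttr was 2.53 to 2.86, and those of 7 other members overlapped it, while those of Folr1 (0.96 to 2.04) and Enpp2 (0.863 to 1.2) lay wholly below it and include 1. Kcnj13, with 6 and 12 fragments, had an interval of 0.701 to 6.55, so that a difference was not detectable at this depth. On the scale of log2(FPKM + 1), which compresses the changes of weakly expressed genes, the median fold change of the 10 members was 0.50 against -0.002 over all rows tested. Among the members, Ttr alone was past a log2 fold change of 1 (1.42), as were 0.866% of the rows tested. With a pseudocount of 0.1, Aqp1 (1.21), Clic6 (1.10) and Kl (1.04, mean under 1 FPKM) were past it as well, and after rescaling each library to a common sum Aqp1 (1.08) was. With the FPKM ratio, 8 of the 10 members were at least 1.5-fold higher, as were 5.18% of the 14221 rows with at least 20 estimated fragments in both libraries together, a minimum that Kcnj13 does not reach.

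In females the members parted. Ttr was 10.7-fold higher in the BPA than in the control library (interval 6.91 to 17.4), and Kcne2 was 2.25-fold higher (1.33 to 3.89). Otx2 was 1.32-fold higher, within counting error (0.64 to 2.76). The other 7 members were lower in female BPA. Kcnj13 was at 0.0523 times its control level (0.00126 to 0.331) and Enpp2 at 0.761 times (0.63 to 0.917), and these were the 2 whose interval excludes 1. For Aqp1 (0.50), Clic6 (0.615), Slc4a5 (0.688), Folr1 (0.775) and Kl (0.429, interval 0.00726 to 8.23) the ratio was under 1 but the interval includes it, so that a fall was not detectable at this depth. The female interval of Ttr lay wholly above those of 8 of the other 9 members, and only that of Kl, from 3 fragments in all, reached it. The median log2 fold change of the members was -0.12, against -0.038 over all rows, and 3 of the 10 were above 0. Of the 4 members among the 13550 rows with a mean of at least 1 FPKM, 2 were above 0, as were 43.2% of those rows. At least 1.5-fold higher were 2 members (4.19% of 14203 rows) and at least 1.5-fold lower were 4 members (9.91% of rows), namely Kl, Aqp1, Clic6 and Kcnj13, none of which reaches 20 fragments in both libraries together. Ttr, at 3.13, was 1 of 4 members that passed the filter on the mean, and it was again past a log2 fold change of 1 upwards, as were 1.03% of rows. With a pseudocount of 0.1, Kcne2 (1.12) was past it as well. Kcnj13, at -1.32, was past it downwards but has a mean under 1 FPKM in the female libraries and was not among the rows tested.

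**Figure D3:**
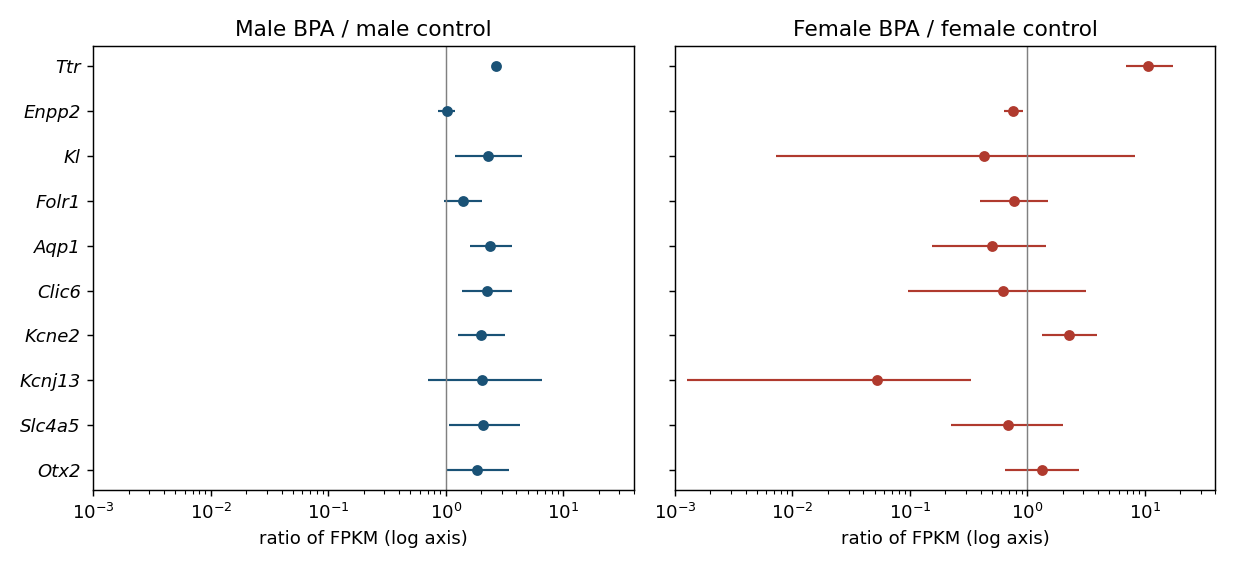
Ratio of the FPKM in BPA to that in control for each member (log axis), left for males and right for females, 1 library against 1, with lines for the 95% counting interval and a grey line at 1. The male points other than Enpp2 and Folr1 lie between 1.85 and 2.69, whereas the female points run from 0.0523 for Kcnj13 to 10.7 for Ttr.

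Of the members, 7 had changes of opposite sign in the 2 sexes, namely Enpp2, Kl, Folr1, Aqp1, Clic6, Kcnj13 and Slc4a5, while 43.2% of the 13542 rows with values in all 4 libraries and a mean of at least 1 FPKM did. Kl, Kcnj13 and Slc4a5 have lower means and are not among those rows, and of the 7 members that are, 4 had opposite signs, a share near that of all rows. Ttr, Kcne2 and Otx2 were higher after BPA in both sexes. For Kcne2 and Otx2 both BPA libraries also lay above both control libraries, as they did for 13.8% of rows, whereas Ttr in female BPA (42.4 FPKM) stayed below male control (256 FPKM). As background over all rows, both sexes were joined, 2 BPA against 2 control libraries. There limma with Benjamini-Hochberg adjustment passed 0 of 13542 rows at an adjusted p under 0.05 (0% of rows, and 637 at an unadjusted p under 0.05). With sex as a covariate, limma passed 2 rows, with 1216 at an unadjusted p under 0.05. Nothing is read from either fit about the members.

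For Ttr the difference between the control pools of the sexes exceeded that with BPA in either sex, at 64.8-fold higher in males (counting interval 42.6 to 104). Kl was 7.0-fold (1.63 to 63.1), Clic6 5.15-fold, Aqp1 2.85-fold and Folr1 2.18-fold higher, and all 5 intervals exclude 1. Kcnj13 went the other way, at 0.326 times the female level (0.106 to 0.856). The remaining members, Enpp2, Kcne2, Slc4a5 and Otx2, had ratios of 1.08 to 1.38 whose intervals include 1. At least 1.5-fold higher in male control were thus 5 members, as were 6% of the 14215 rows with at least 20 fragments, a minimum that Kl does not reach. Of the 9 members within those rows, 4 were. Between the BPA libraries 8 members were at least 1.5-fold higher in males, and of the 9 members that reach 20 fragments 7 were (7.38% of 14065 rows, which leave out Kcnj13). The ratios of the 8 ran from 1.74-fold for Otx2 to 37.0-fold for Kl (interval 6.21 to 1500), which rests on 1 female fragment, with 16.3-fold for Ttr. The minimum of 20 counts both libraries together, so a member can reach it by 1 library alone. Male BPA alone reached it for Kl (34 male and 1 female fragments), Clic6 (58 and 3), Aqp1 (84 and 6) and Slc4a5 (29 and 7). The 7 of 9 is thus partly set by the minimum. Both male libraries exceeded both female libraries for 7 of the 10 members, and for 5 of the 7 members that average at least 1 FPKM, as they did for 22.5% of the rows with such a mean. With 1 pool per sex and treatment, sex and pool cannot be told apart.

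From high to low, Ttr followed the order male BPA, male control, female BPA, female control, which 5.17% of rows share but no other member does. Another 6 members (Enpp2, Kl, Folr1, Aqp1, Clic6 and Slc4a5) followed the order male BPA, male control, female control, female BPA, as 4.72% of rows did, and 4 of these members (Enpp2, Folr1, Aqp1 and Clic6) average at least 1 FPKM as those rows do.

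Other genes used as markers of choroid plexus epithelium, 30 in all, were listed without exception. Of these, 6, namely Mfrp, Tmem72, Sostdc1, Slco1a5, F5 and Slc29a4, had the order of Ttr between libraries. Another 4, namely Ace, Krt8, Krt18 and Cldn1, had that of the 6 members from Enpp2 to Slc4a5. Slc29a4 was nearly even, with 72.6 and 73.6 FPKM in the male pools and 56.0 and 66.1 FPKM in the female pools. Tmem72, Slco1a5 and F5 average under 1 FPKM and are not among the rows of which 5.17% share the order of Ttr. Slco1a5 rests on 4 and 9 fragments in males and 0 and 1 in females. Male BPA was the highest library for 16 of the 30 and female control for 11. The shares of all rows highest in these libraries were not computed, so both counts stand without a background. Mfrp, which encodes a frizzled-related membrane protein, was at 1.77 and 4.25 FPKM in the male pools and 0.10 and 0.26 FPKM in the female pools. Sostdc1, a secreted inhibitor of Wnt and BMP signals, was at 1.64 and 3.08 FPKM in males and 0.21 and 0.76 FPKM in females, and Tmem72, a membrane protein, at 0.41 and 1.16 FPKM in males and 0.03 and 0.07 FPKM in females. All 3 were thus higher in each male than in each female library, and their female values rest on 1 to 11 fragments. In males 23 of the 30 were higher after BPA and 6 lower, with a median log2 fold change of 0.109. In females 8 were higher and 22 lower, with a median of -0.182. Of all rows averaging at least 1 FPKM, 49.2% were above 0 in males and 43.2% in females. Of the 30, only 19 average that much in males and 15 in females. On log2(FPKM + 1) none was past a change of 1 in males. By FPKM ratio some genes of the list moved more there, such as Cldn2 (7.8-fold higher, 4 and 31 fragments), Tmem72 (2.83-fold) and Mfrp (2.4-fold). The lowest male ratio was 0.651 for Steap1.

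In females 2 of the 30 were past it, both downwards. Slc13a4, a sulfate transporter of choroid plexus and meninges, was at 2.53 and 2.87 FPKM in the male libraries and at 11.4 and 2.15 FPKM in females. Igf2, a growth factor of both tissues, was at 8.86 and 10.9 FPKM in males and at 29.6 and 8.16 FPKM in females. Female control was thus the highest library for these 2 genes, as it was for Kcnj13. Markers that other brain cells share, such as Igfbp2 (90.8 to 132 FPKM), Htr2c (9.18 to 12.1 FPKM) and Trpm3 (5.03 to 5.55 FPKM), were nearly even across the libraries. The sum of the 30 genes was 243 to 308 FPKM, most of it from Igfbp2 and Slc29a4 (56.0 to 73.6 FPKM), so it says little about the weaker genes.

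**Figure D4:**
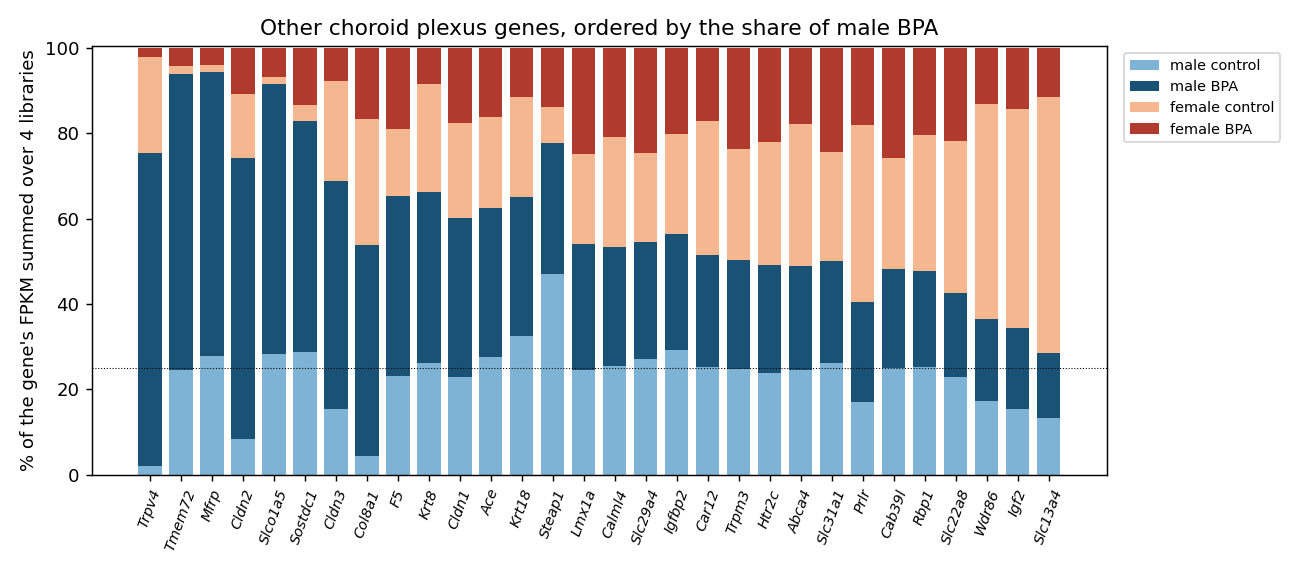
Share of the FPKM summed over the 4 libraries that was measured in each library, for the 30 other choroid plexus genes, ordered by the share of male BPA, with 25% (dotted line) for an even spread. Mfrp and Tmem72 were found mostly in the male libraries, and Slc13a4 and Igf2 mostly in female control.

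Markers of the meninges, which cover the brain surface, differed between the female libraries as well. All 11 of the 11 meningeal genes were highest in female control, a count for which the share of all rows was not computed. Their summed level was 98.5 and 93.1 FPKM in the male pools and 357 and 77.7 FPKM in the female pools. Of the 11, 8 were past a log2 fold change of 1 downwards in females, as were 175 of the 13550 rows tested. The median of the 11 was -1.26 in females and -0.19 in males. Ptgds, a prostaglandin D synthase made by both meninges and choroid plexus, was at 28.9 and 40.2 FPKM in males and 209 and 18.1 FPKM in females. Female control is thus the library in which Kcnj13, Slc13a4 and Igf2 were highest and Ttr was lowest. The part of meningeal tissue in the female values of the members was not tested.

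Ependymal and motile cilia genes, which belong to the cells lining the ventricles, did not follow Ttr. Of 11 such genes 8 were listed, and 8 of 8 were lower in male BPA than in male control, with a median log2 fold change of -0.35. In females 7 of 8 were lower in BPA (median -0.37). All 8 average at least 1 FPKM, and of all such rows 49.2% were above 0 in males and 43.2% in females. Foxj1, the master regulator of motile cilia, was at 19.7 and 14.7 FPKM in the male pools and 9.31 and 11.5 FPKM in the female pools. The cortical hem, from which the hippocampal choroid plexus and Cajal-Retzius cells arise, was read by 10 genes, with Reln between 75.5 and 103.9 FPKM. After BPA 4 were higher and 6 lower in males (median -0.03), and 5 and 5 in females (median 0.004). Both male libraries exceeded both female libraries for 7 of the 10 hem genes, as they did for 7 of the 10 members. The summed level was 54.7 and 37.7 FPKM in the male pools and 41.9 and 33.5 FPKM in the female pools for the ciliary genes, and 95.5 and 124 against 93.4 and 97.3 FPKM for the hem genes. Of the other marker lists, hippocampal neuron genes had medians of 0.07 in males and -0.02 in females, thalamus and habenula genes (4 of 6 listed) -0.04 and -0.28, and red blood cell genes (7 of 9 listed) -0.16 and 0.065.

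**Figure D5:**
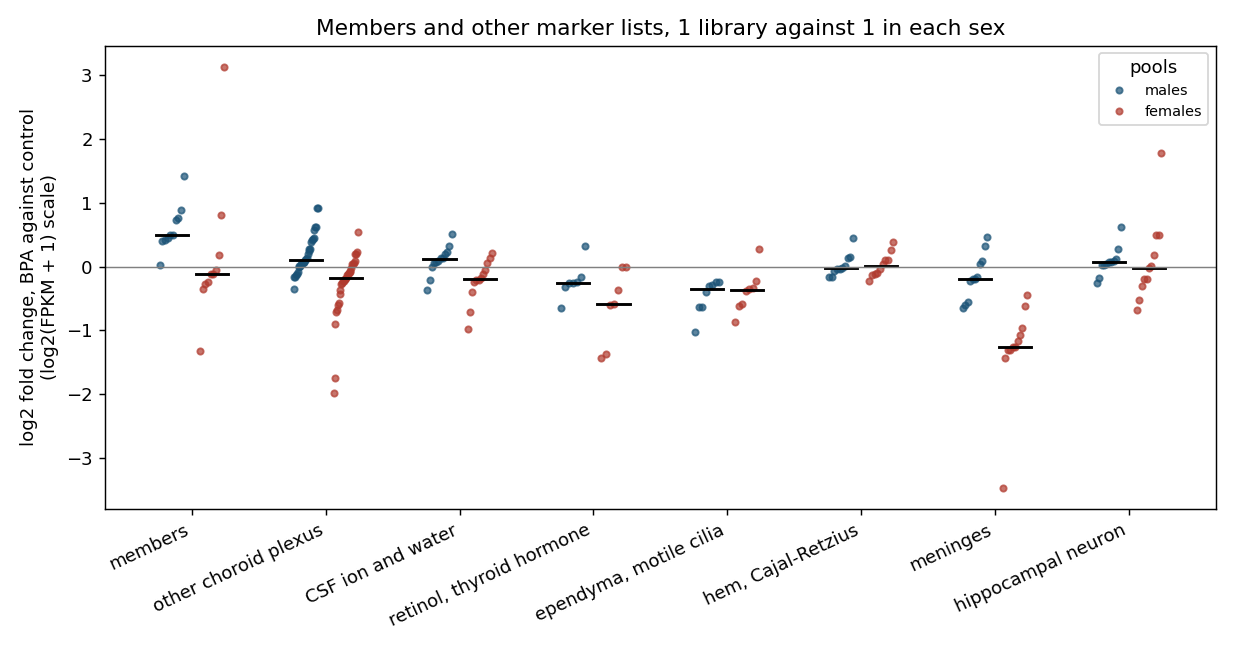
Log2 fold change of BPA against control on log2(FPKM + 1) for the 10 members and 7 marker lists, 1 point for each gene, males in blue and females in red, with a black bar at the median. The members have medians of 0.50 in males and -0.12 in females, and the meningeal genes -0.19 and -1.26.

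The partners of the members in their pathways were measured as well. The ion and water transport of cerebrospinal fluid secretion was read by 12 genes, of which Car12 is also among the 30 choroid plexus genes above. Of the 12, 9 were higher and 3 lower in males (median log2 fold change 0.11). In females 3 were higher and 9 lower (median -0.19), and none was past a change of 1 in either sex. Atp1b1, a beta subunit of the sodium pump that neurons use too, was at 209 to 242 FPKM. Kcnq1, the channel with which Kcne2 can assemble, was at most 0.15 FPKM. Fxyd1, a small membrane protein that regulates ion transport, was at 2.92 and 3.92 FPKM in the male pools and 4.14 and 1.62 FPKM in the female pools.

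The 7 genes of retinol and thyroid hormone carriage, the cargo of transthyretin, had medians of -0.26 in males and -0.58 in females, with 1 higher in males and 0 in females. Rbp4, the retinol-binding protein that travels with transthyretin, was at 2.29 and 1.63 FPKM in the male pools and 5.47 and 1.5 FPKM in the female pools, and Slco1c1, a thyroxine transporter of brain vessels and choroid plexus, was at 38.5 and 32.1 FPKM in males and 50.3 and 33.3 FPKM in females. Both were highest in female control, where Ttr was lowest. Rbp4 and Crabp2 were past a log2 fold change of 1 downwards in females. Crabp2 is also 1 of the 11 meningeal genes. Of the 7 carriage genes 5 were highest in female control, as all 11 meningeal genes were.

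Folate transport held Slc46a1 (13.5 to 15.7 FPKM) and Slc19a1 (5.52 to 6.20 FPKM), nearly even across libraries, and Folr2, listed for females only at 0.20 and 0.10 FPKM. Of 9 receptors and phosphatases of lysophosphatidic acid, the product of autotaxin, 8 were listed, with medians of -0.10 in males and -0.16 in females and Plpp3, a phosphatase, at 30.8 to 36.2 FPKM. Of 6 partners of klotho 4 were listed, all FGF receptors, and Fgfr1, at 71.4 to 95.1 FPKM, was the most abundant. Their median log2 fold change was 0.30 in males, where 3 were higher, and -0.10 in females, where 4 of 4 were lower. Of 10 transcription factors of the dorsal midline and multiciliated cells 7 were listed, with medians of -0.11 and 0.09. Lmx1a, which shapes the roof plate and choroid plexus, was at 0.58 to 0.81 FPKM, and Otx1, the relative of Otx2, was at 5.05 and 5.93 FPKM in the male pools and 2.23 and 4.30 FPKM in the female pools.

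The rows most like Ttr in pattern were sought among 8353 rows that carry a gene ID, average 5 FPKM or more and have values in all 4 libraries. Apart from Enpp2, the other members average less than that, as do Mfrp, Sostdc1 and Tmem72. The search therefore does not show whether these choroid plexus genes were nearer to Ttr than the rows found. Likeness was taken as the root mean square difference of the centred log2(FPKM + 1) values, for which a flat gene would have 2.71. The nearest 8 were Mrps34 (1.78), Gpr27 (1.91), Rnf151 (1.98), Tmem158 (2.09), Sp9 (2.09), Prr7 (2.16), LOC691153 (2.19) and H2afj (2.22). Gpr27, an orphan receptor, was at 52.9 and 63.0 FPKM in the male pools and 14.8 and 25.5 FPKM in the female pools, which is the order of Ttr over a range of 2.02 on the log2 scale against 7.12 for Ttr. Mrps34, a mitochondrial ribosomal protein, had female control as its 1 low library, with 17.3 and 13.1 FPKM in males and 1.27 and 12.2 FPKM in females.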

How the data were processed

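RNA of 3 pooled hippocampi per group was sequenced, 1 library for each sex and treatment. The authors deposited 1 FPKM value per gene and library, to 2 decimals and with 0.01 as the lowest value. The submitters' processing notes name the rat build rn6, HISAT 0.1.6, Bowtie2 2.2.5 and RSEM, and the program that computed the FPKM is not given in the sources used here. From these values, log2 fold changes on log2(FPKM + 1) were computed over rows averaging at least 1 FPKM, and limma 3.58.1 (R 4.3.3, trended eBayes, Benjamini-Hochberg adjustment) was fitted to 2 BPA and 2 control libraries. Depth (8880000, 8930000, 8650000 and 8810000 fragments in the control and BPA pools of males and then of females) was taken from the steps of low values of genes of 300 to 1500 bases, of which 94.4% to 98.5% lay within 0.15 of a whole fragment. The depth and limma steps were tested on simulated data. A ratio of 1.5 over rows with at least 20 estimated fragments was added as a second way of counting after the values were seen. Further steps used scipy 1.17.1, pandas 2.3.3 and numpy 2.4.6 under Python 3.11.15, and plots used matplotlib 3.10.9. Gene names and promoters come from RefSeq (GRCr8), whose gene coordinates were not used with the values. The members and the marker lists were chosen with earlier results of these data known. Some genes stand in more than 1 list, as the 137 places in the lists are held by 132 distinct genes. Named are all 10 members, genes of these lists, and the 8 rows most like Ttr among those averaging 5 FPKM or more. The alternatives were another filter, a pseudocount of 0.1, quantile normalization, rescaling each library to a common sum, a term for sex, omission of each library in turn, sums with new gene models, and leaving out Ttr.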

Additional observations from a re-analysis of the deposited data

Results flagged for a closer look

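Of the members, 7 had fold changes in opposite directions in the male and the female pools, each direction resting on 1 library against 1, so that the difference between the sexes was not tested. The log2 fold change in males minus that in females was 1.77 for Kcnj13 (0.45 and -1.32), 1.17 for Aqp1 (0.89 and -0.28), 0.89 for Clic6 (0.77 and -0.12), 0.65 for Folr1 (0.41 and -0.24), 0.56 for Kl (0.50 and -0.06), 0.53 for Slc4a5 (0.41 and -0.11) and 0.38 for Enpp2 (0.02 and -0.35). Among the 13542 rows averaging at least 1 FPKM over the 4 libraries 43.2% had opposite signs, and of the 7 members within those rows 4 did, a share near that of all rows. Kl, Kcnj13 and Slc4a5 are not among those rows. None of the 7 had both changes beyond counting error: the female interval includes 1 for Kl, Folr1, Aqp1, Clic6 and Slc4a5, and the male interval includes 1 for Kcnj13, Enpp2 and Folr1.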

How the results depend on the processing

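Every member kept the sign of its fold change in each sex with a pseudocount of 0.1, quantile normalization and rescaling each library to a common sum. Summing with new gene models changed no value, since no such model carries the protein name of a member. The median over the members in males, 0.50, was 0.935 with a pseudocount of 0.1, 0.515 after quantile normalization, 0.71 after rescaling and 0.498 without Ttr, and in females, -0.116, it was -0.389, -0.051, -0.237 and -0.119. The rows whose log2 fold change passed 1 numbered 230 (males) and 314 (females), and were 26 and 62 with a mean of at least 5 FPKM, 483 and 590 with a pseudocount of 0.1 and 565 and 745 after rescaling. In the limma fit of both sexes, where 0 rows passed, 2 passed with sex as a covariate, and 0 to 3 when 1 library was left out (3 without female control, 1 without male BPA). Within a sex no library could be left out. The labels give no replicate numbers, so sex was the one block by which BPA and control libraries could be paired, in the fit with sex as a covariate. The depth limits the low members, as Kl in females and Kcnj13 in female BPA rest on 1 or 2 fragments.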
